A study of Mus musculus with 24 samples.

Results

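The genes described here are 40 members of the antiviral interferon response, measured in cultured mouse whisker follicles. They were chosen by name: a probe belonged to a member when the array's own annotation gave that gene symbol, and the probe with the highest mean signal stood for the gene. All 40 were on the array among 36610 genes or transcripts, and all 40 were among the 22065 that were bright enough to be tested. The follicles came from B6C3F1 mice at postnatal day 9 and were kept in RPMI 1640 medium with 10% fetal bovine serum for 24 h, which all groups share, and each RNA sample pooled 10 follicles. There were 8 groups, and each had 3 arrays from independent experiments. The combination group, PEE-PH-TA, received 0.3% PEE (panthenyl ethyl ether, an ether of panthenol), 0.015% PH (pyridoxine hydrochloride) and 0.024% TA (tocopherol acetate, a vitamin E ester). The PEE-PH, PEE-TA and PH-TA groups received the named pair, and the PEE, PH and TA groups the single compound, each at the same dose. The control group received none of the 3 compounds, and no vehicle is named in the labels.

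Type I interferons such as interferon beta are secreted when a cell's sensors detect foreign or misplaced nucleic acid. They bind a receptor made of IFNAR1 and IFNAR2, which activates STAT2. It joins IRF9 and binds the interferon-stimulated response element in the promoters of many genes, whose products block viral replication or tune the response. Skin and hair follicles hold both epithelial cells and immune cells that can make and answer interferon. A whole follicle was measured, so fewer cells of a type and less RNA per cell cannot be told apart.

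The promoters of 5 members are printed to show where the letters that the binding proteins of this pathway are known to read do and do not occur. Each run below is the 200 bases before an annotated transcript start in the build GRCm38.p6, read 5′ to 3′ on the gene's strand. Capitals mark every match to AANNGAAA, a short interferon regulatory factor motif, or to GAAANNGAAA, the core of the interferon-stimulated response element, on either strand, and every GAAANNGAAA contains AANNGAAA. Ifnb1, at chr4:88522795-88522994 on the minus strand, is shown as the interferon gene itself.
Ifnb1: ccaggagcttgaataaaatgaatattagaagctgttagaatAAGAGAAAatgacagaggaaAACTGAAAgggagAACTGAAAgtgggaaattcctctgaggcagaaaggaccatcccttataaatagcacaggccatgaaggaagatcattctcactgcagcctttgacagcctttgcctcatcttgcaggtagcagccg
Isg15, at chr4:156200819-156201018 on the minus strand, is shown because its level followed the mean of the other members more closely than that of any other member.
Isg15: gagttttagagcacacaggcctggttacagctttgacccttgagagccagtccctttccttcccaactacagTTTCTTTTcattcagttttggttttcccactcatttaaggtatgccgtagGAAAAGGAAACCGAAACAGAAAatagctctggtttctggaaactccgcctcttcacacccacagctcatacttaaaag
Ifit3, at chr19:34583329-34583528 on the plus strand, and Ifit1, at chr19:34640689-34640888 on the plus strand, lie in the same Ifit cluster of chromosome 19. The RefSeq gene Ifit3 begins at 34583119, so its window lies inside the annotated gene, before a later start.
Ifit3: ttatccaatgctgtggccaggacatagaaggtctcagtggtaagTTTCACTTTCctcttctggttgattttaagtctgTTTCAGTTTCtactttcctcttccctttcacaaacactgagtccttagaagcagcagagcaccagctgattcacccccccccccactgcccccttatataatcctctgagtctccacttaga
Ifit1: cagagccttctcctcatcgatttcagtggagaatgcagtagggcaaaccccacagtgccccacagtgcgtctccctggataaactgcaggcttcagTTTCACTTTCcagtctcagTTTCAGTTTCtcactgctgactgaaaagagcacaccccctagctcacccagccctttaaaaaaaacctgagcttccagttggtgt
Ifnar2, at chr16:91372583-91372782 on the plus strand, is shown as the member that moved least over the 24 arrays.
Ifnar2: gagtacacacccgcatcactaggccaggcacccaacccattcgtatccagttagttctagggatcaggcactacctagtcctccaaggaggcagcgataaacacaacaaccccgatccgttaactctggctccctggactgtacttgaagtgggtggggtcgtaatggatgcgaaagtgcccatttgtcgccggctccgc
In these windows Isg15 held 3 matches to GAAANNGAAA, Ifit3 and Ifit1 held 2 each, and Ifnb1 and Ifnar2 held 0. Ifnb1 held 3 matches to the shorter AANNGAAA and Ifnar2 held 0. Over 250 bases before the start used, 13 of the 30 members with a promoter sequence (43.3%) held GAAANNGAAA, and 936 of 27025 genes (3.46%) did. The start used was not the first annotated start of every gene. The shorter motif was found in 18 of the 30 members (60.0%) and in 6466 of 27025 genes (23.9%). The 13 members were Stat2, Ddx60, Ifit1, Ifit1bl1, Ifit3, Ifit3b, Oas1a, Oas3, Isg15, Rsad2, Bst2, Trim30a and Ifi206. The windows of Ifit3 and Ifit3b both lie inside the annotated genes, share a stretch of 169 bases and are not independent of each other. A match describes letters in a window and does not show that a protein binds there.

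Across the groups the members formed an ordered picture with the control cultures on top. All values below are log2 signal relative to the 75th percentile of the same array, so that 0 is the signal of a fairly bright probe, and differences between groups are differences of these log2 values. The control mean was the highest of the 8 group means for 38 of the 40 members. Ifnar1 was highest in PEE and Ifnar2 in PEE-TA. The lowest mean fell in PEE-PH for 31 members, in PEE-PH-TA for 5 and in PEE for 4. Averaged over the 40 members, the arrays lay at -0.51, -0.58 and -0.54 in PEE-PH-TA and at -1.03, -0.32 and -0.97 in PEE-PH. They lay at 0.06, -0.29 and -0.52 in PEE-TA and at -0.15, 0.27 and -0.91 in PEE. Without PEE the averages were 0.19, 0.16 and 0.61 in PH-TA, 0.81, 0.10 and 0.51 in PH, and 1.00, 0.56 and 0.44 in TA, against 1.23, 0.93 and 1.14 in control. Every array that received a compound lay below the lowest control array, except the TA array of replicate 1, which lay between the control arrays.

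**Figure D1:**
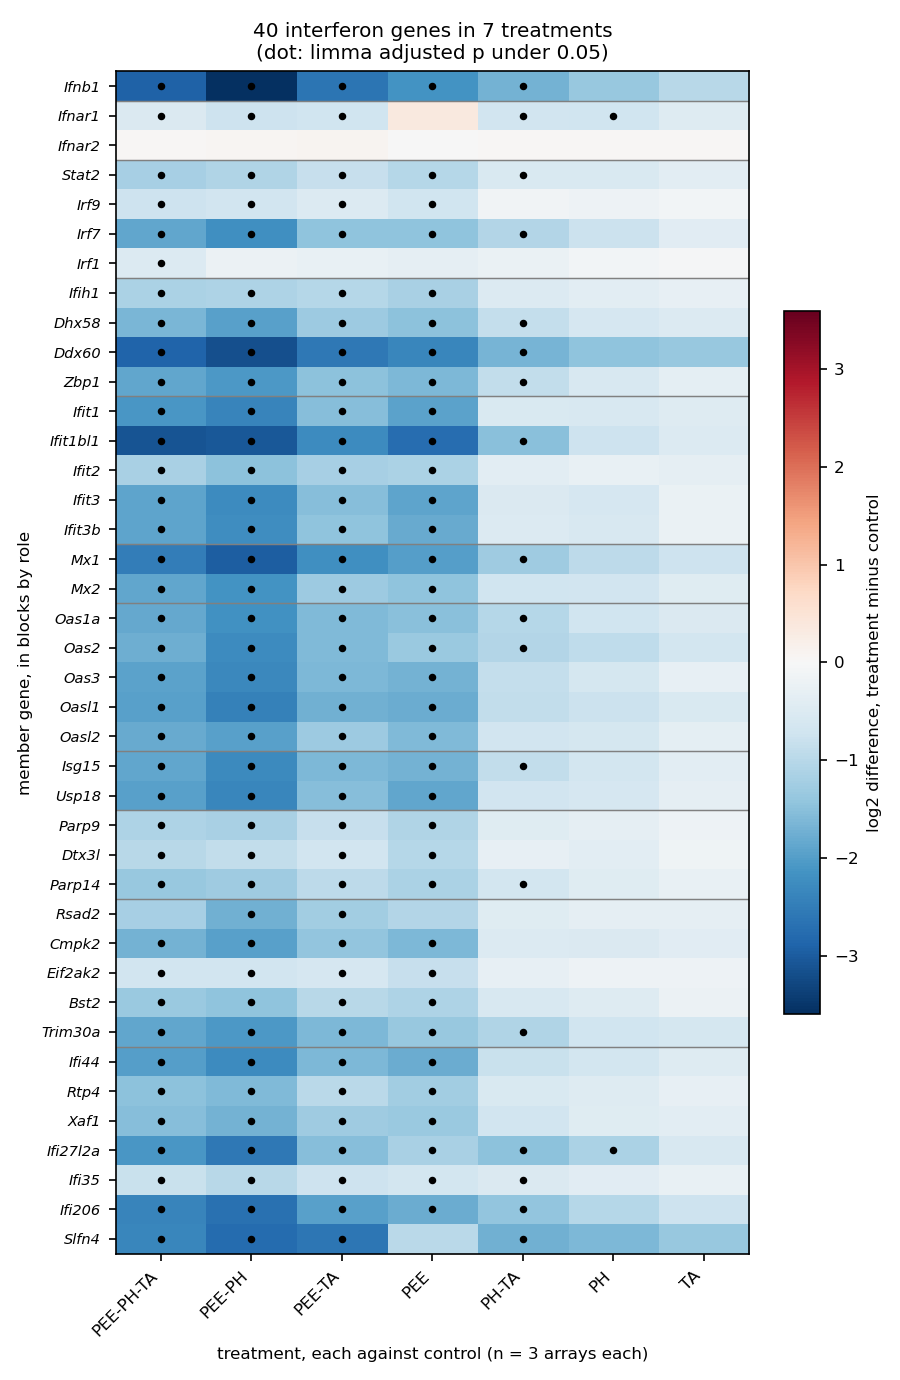
Difference in log2 signal from control of each of the 40 members (vertical, in blocks by role) in each of the 7 treatments (horizontal), with blue for lower and red for higher than control and a dot where the limma adjusted p was under 0.05. The 4 treatments with PEE at the left hold most of the dots, and TA at the right holds 0. Ifnar2 stays near control throughout, and Ifnar1 is above control in PEE and below it in the other treatments.

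Facts of the whole data set that touch these values are few. Between 58.3% and 62.5% of spots were well above background on an array, and no spot was saturated. The 75th percentile signal itself moved with the groups: it was 175 to 187 in PEE-PH-TA, 199 to 217 in PEE-PH, 177 to 200 in PEE-TA and 142 to 147 in PEE. It was 203 to 248 in PH-TA, 180 to 192 in PH and 175 to 200 in TA, against 155 to 190 in control. Its part in the results was not tested by the design, and with it as a covariate 36 members fell in PEE-PH-TA and 38 in the average effect of PEE; smaller counts under it are given beside the results. Of the 40 members, 34 were well above background on all 24 arrays. The exceptions were Ifi206 on 23 arrays, Oas3 on 22, Ifnb1 on 16, Ddx60 on 13, Ifit1bl1 on 8 and Slfn4 on 4. Throughout, above background means well above background. Ifit1bl1 and Slfn4 were above background on all 3 arrays in control only. They entered the test through the group where they are high, so their place below control is not independent of that rule. Both are kept in the counts of members. The 7 comparisons with control share the same 3 control arrays and are therefore not independent of each other.

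With all 3 compounds together (PEE-PH-TA against control), the response was lower from the interferon gene through the transcription factors to the effectors. Of the 40 members, 38 fell and 0 rose at an adjusted p under 0.05 in the limma fit over all 22065 genes, in which 8.72% of genes fell and 7.78% rose. The members' median difference was -1.83, against a median close to 0 over all genes. For 39 members every PEE-PH-TA array lay below every control array, which was so for 16.7% of all genes. Those that did not pass were Ifnar2, with a difference of 0.04 ± 0.08 (SE; adjusted p = 0.759), and Rsad2.

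Ifnb1 encodes interferon beta, and its probe maps to chromosome 4, 88168023 to 88168082 on the minus strand of mm9, the build of the array files. It lay at -5.83, -5.12 and -6.53 in PEE-PH-TA, against -2.79, -2.87 and -3.09 in control. The groups did not overlap, and the 3 control arrays were close together while the PEE-PH-TA arrays spread over more than 1 log2 unit. The difference was -2.91 ± 0.48 (SE, n = 3 and 3; adjusted p = 0.00045), or 7.51-fold lower. The probe was well above background on 1 of the 3 PEE-PH-TA arrays and on all 3 control arrays. Its size depends on how dim signals are treated: with normexp background correction and an offset of 50 it was -0.53 (adjusted p = 7.35e-05), and 11 of the 38 members that fell were more than 1.5 times smaller on the log2 scale under that correction, among them Mx1 at -1.25.

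Of the receptor genes, Ifnar1 was lower by its brightest probe and Ifnar2 was level. Ifnar1, the chain on which the kinase TYK2 docks, lay at 0.19, -0.10 and 0.09 in PEE-PH-TA, against 0.44, 0.60 and 0.69 in control. These do not overlap, and the difference was -0.52 ± 0.15 (adjusted p = 0.0259). The 4 tested probes for the gene did not move alike: the difference was -0.52 for the one used here and -0.40, 0.27 and 0.28 for the others. With the mean of all tested probes the difference was -0.09 (adjusted p = 0.543), and leaving out PEE-PH-TA replicate 2 or 3 or control replicate 2 or 3 also ended the call, with an adjusted p of up to 0.104. With the 75th percentile signal as a covariate the adjusted p was 0.0519. Ifnar2, the chain that binds interferon tightly, lay at 1.73, 1.81 and 1.83 in PEE-PH-TA, against 1.74, 1.71 and 1.77 in control. These arrays overlap, and over all 24 arrays the level of Ifnar2 spanned 0.37 log2 units.

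Among the transcription factors, Stat2 encodes a factor that is activated at the receptor. It lay at 0.44, 0.44 and 0.60 in PEE-PH-TA, against 1.74, 1.61 and 1.74 in control, a difference of -1.21 ± 0.16 (adjusted p = 7.79e-05). Irf7, the factor that amplifies interferon transcription, lay at 3.93, 3.64 and 3.75 in PEE-PH-TA, against 5.97, 5.41 and 5.59 in control. Every PEE-PH-TA array was thus more than 1 log2 unit below every control array for both genes, and the difference for Irf7 was -1.88 ± 0.32 (adjusted p = 0.000639). Irf9, the DNA-binding part of the STAT complex, fell by 0.75 ± 0.16 (adjusted p = 0.00258). Irf1, a factor that also answers interferon gamma, lay at 1.55, 1.56 and 1.69 in PEE-PH-TA, against 2.09, 2.02 and 2.18 in control. Its difference, -0.49 ± 0.14 (adjusted p = 0.0247), was the smallest among the members that fell, and leaving out PEE-PH-TA replicate 1 or 2 or control replicate 1 or 3 ended the call, with an adjusted p of up to 0.0916. With the covariate its adjusted p was 0.0525.

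The nucleic acid sensors fell as well. Ifih1 encodes MDA5, a sensor of long double-stranded RNA, and lay at -0.92, -0.91 and -0.77 in PEE-PH-TA, against 0.36, 0.12 and 0.31 in control. The groups did not overlap, and the difference was -1.13 ± 0.20 (adjusted p = 0.000897). Dhx58, which encodes the related helicase LGP2, fell by 1.66, and Zbp1, a sensor of left-handed nucleic acid that can start cell death, by 1.88. The helicase gene Ddx60 was above background on none of the PEE-PH-TA arrays, so its fall has only a bound and was at least 5.13-fold (adjusted p = 0.000214). Its control arrays lay at -3.58, -3.66 and -1.78, so the size of this bound leans on control replicate 3. With normexp the difference was -0.50 (adjusted p = 0.0075).

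The Ifit genes encode proteins that bind viral RNA and stop its translation. Ifit1 lay at -1.60, -0.97 and -1.14 in PEE-PH-TA, against 1.10, 0.72 and 0.76 in control, a difference of -2.09 ± 0.41 (adjusted p = 0.00174). Ifit3, which stabilises IFIT1 in human cells, lay at 1.60, 1.84 and 1.63 in PEE-PH-TA, against 3.75, 3.46 and 3.57 in control, a difference of -1.90 ± 0.42 (adjusted p = 0.00452). For both genes the highest PEE-PH-TA array lay more than 1 log2 unit below the lowest control array. Ifit2, whose product promotes the death of infected cells, fell by 1.16. Ifit3b, a near copy of Ifit3, also fell by 1.90, and whether the probes of these copies detect each other's RNA was not tested. Ifit1bl1, a relative of Ifit1, was at least 2.01-fold lower (adjusted p = 0.000215), since none of its PEE-PH-TA arrays was above background.

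The Mx genes encode GTPases that block the entry or copying of viruses, and RefSeq marks both Mx1 and Mx2 as transcribed pseudogenes in the mouse reference. Mx1 lay at -3.04, -2.61 and -2.89 in PEE-PH-TA, against -0.17, -0.54 and -0.33 in control. The groups stood apart by more than 2 log2 units, and the difference was -2.50 ± 0.45 (adjusted p = 0.00097), or 5.65-fold lower. Mx2 fell by 1.86 (adjusted p = 0.00181).

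All 5 members of the oligoadenylate synthetase family fell, by 1.76 to 1.96. Oas1a, Oas2 and Oas3 make the oligoadenylate that activates RNase L, while Oasl1 and Oasl2 are relatives. Oas2 lay at -0.98, -1.18 and -0.72 in PEE-PH-TA, against 1.03, 0.57 and 0.79 in control. These values do not overlap, and the difference was -1.76 ± 0.33 (adjusted p = 0.00135).

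Isg15 encodes a ubiquitin-like protein that is attached to newly made proteins, and its probe maps to chromosome 4, 155573649 to 155573708 on the minus strand of mm9. It lay at 4.10, 4.08 and 3.91 in PEE-PH-TA, against 6.03, 5.76 and 5.92 in control, a difference of -1.87 ± 0.32 (adjusted p = 0.000646). Usp18, which removes ISG15 and also brakes signalling at the receptor, lay at 0.18, 0.19 and 0.10 in PEE-PH-TA, against 2.38, 1.88 and 2.09 in control. In both genes the PEE-PH-TA arrays were close together and lay far below control, and Usp18 differed by -1.96 ± 0.33 (adjusted p = 0.000563). Parp9 and its partner Dtx3l, an ADP-ribosyl transferase and a ubiquitin ligase that act as a pair, fell by 1.10 and 0.99. Parp14, another ADP-ribosyl transferase, fell by 1.35. The other tested probes of Parp9 differed by 0.19 and -0.69, so the probes of that gene disagreed in direction, and their mean differed by -0.54 (adjusted p = 0.103).

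Rsad2 encodes viperin, which makes a chain-ending nucleotide. It lay at -0.72, -0.53 and -1.29 in PEE-PH-TA, against 0.36, 0.36 and 0.37 in control. The arrays did not overlap, but the difference of -1.21 ± 0.42 missed the threshold (adjusted p = 0.0552), with an interval of -2.08 to -0.33. Cmpk2, the neighbouring nucleotide kinase gene, fell by 1.69. Eif2ak2 encodes PKR, which stops translation on double-stranded RNA, and fell by 0.69. Bst2 encodes tetherin, which holds budding virus at the membrane, and fell by 1.35. Trim30a, a negative regulator of inflammatory signalling, fell by 1.87.

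The remaining members are known chiefly as interferon-induced genes. Slfn4, a myeloid Schlafen gene, lay at -7.36, -7.33 and -5.51 in PEE-PH-TA, against -4.20, -4.66 and -4.32 in control. Its arrays did not overlap and none of the PEE-PH-TA arrays was above background, so it was at least 1.96-fold lower (adjusted p = 0.00367). Like Ifit1bl1, Slfn4 entered the test only through the control arrays. Ifi27l2a, which encodes a mitochondrial protein, fell by 2.09 ± 0.25 and had the smallest adjusted p of the members (2.18e-05). Ifi206, a relative of the DNA sensor genes of the Ifi200 family, fell by 2.37, and Ifi44 by 1.98. Xaf1, a promoter of apoptosis, fell by 1.54, Rtp4, a receptor-transporting protein gene, by 1.48, and Ifi35 by 0.80.

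**Figure D2:**
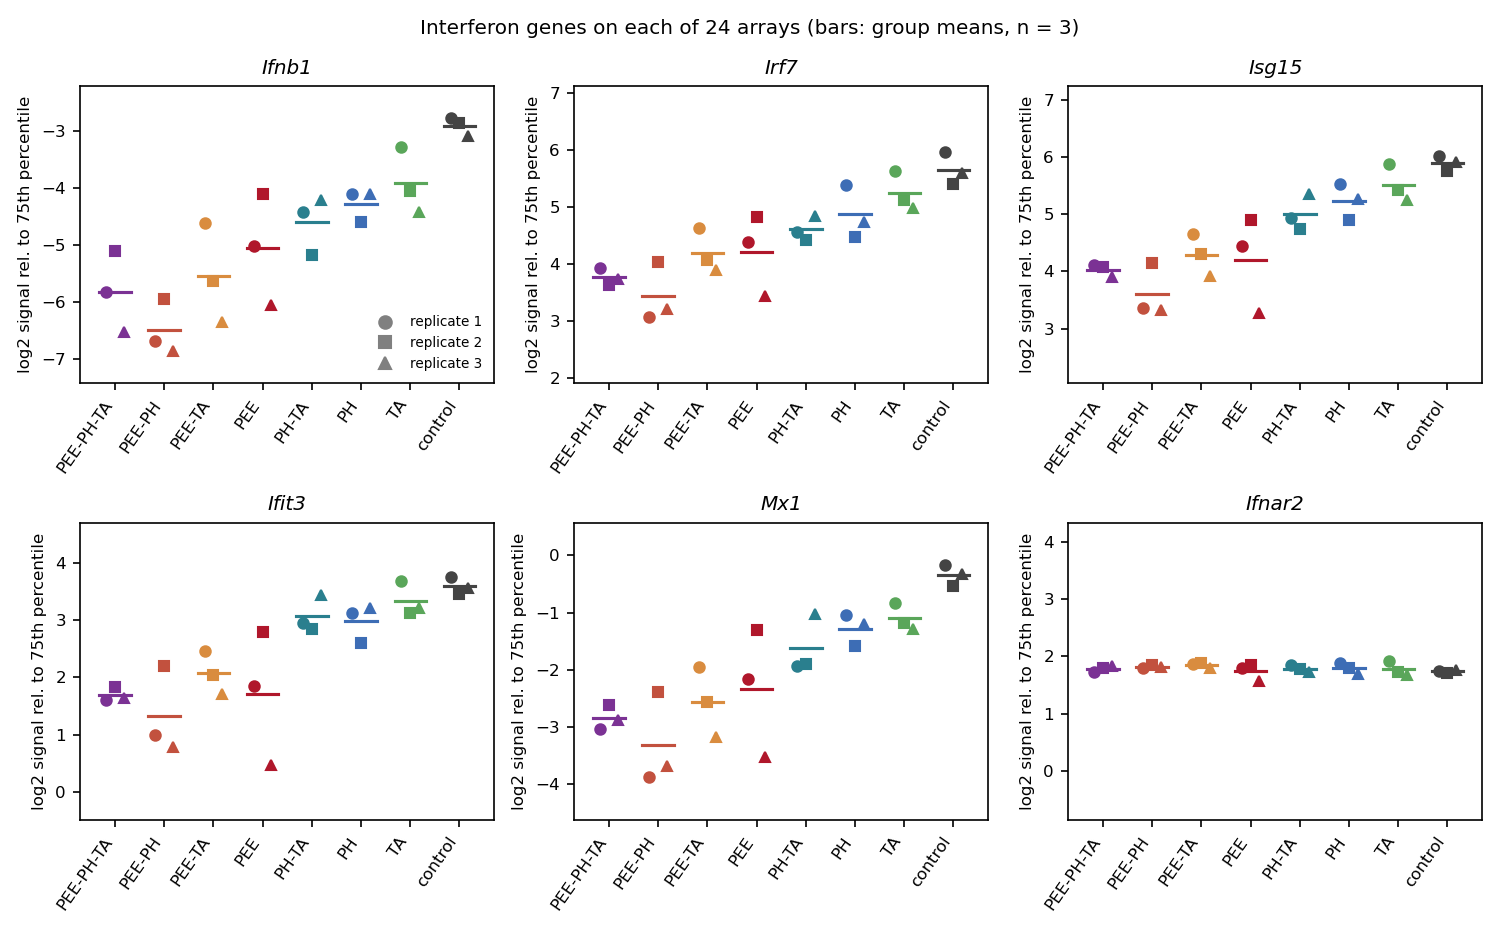
Log2 signal relative to the array's 75th percentile (vertical) of 6 members on the 3 arrays of each of 8 groups (horizontal), with a point per array, its shape giving the replicate number, and a bar at the group mean. Ifnb1, Irf7, Isg15, Ifit3 and Mx1 are highest in control and lowest in PEE-PH, the arrays of PEE are widely spread, and Ifnar2 is level.

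The 3 other treatments that contained PEE also had most members below control. In PEE-PH, 38 members fell and 0 rose against control, where 20.9% of all genes fell and 14.9% rose, and the median difference of the members was -2.06. In PEE-TA, 38 members fell and 0 rose, where 15.3% of all genes fell and 10.2% rose, with a median of -1.43. With PEE alone, 35 members fell and 0 rose, where 5.69% of all genes fell and 5.2% rose, with a median of -1.41, and at an unadjusted p under 0.05 Ifnar1 was higher. The arrays did not overlap with control for 39 members in PEE-PH, 39 in PEE-TA and 38 in PEE, against 27.8%, 23.8% and 16.1% of all genes. Irf1 and Ifnar2 did not pass in PEE-PH or PEE-TA, and Irf1, Ifnar1, Ifnar2, Rsad2 and Slfn4 did not pass in PEE.

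Ifnb1 was lowest in PEE-PH, where it lay at -6.68, -5.96 and -6.85 and was above background on none of the 3 arrays, which makes it at least 6.12-fold lower than control (adjusted p = 2.58e-05). It lay at -4.62, -5.64 and -6.36 in PEE-TA and at -5.02, -4.12 and -6.05 in PEE, against -2.79, -2.87 and -3.09 in control. All 9 of these arrays lay below the lowest control array, and the differences were -2.62 ± 0.48 for PEE-TA (adjusted p = 0.00083) and -2.15 ± 0.48 for PEE (adjusted p = 0.00725). The Ifnb1 probe was well above background on 1 PEE-TA array and 2 PEE arrays. Over the alternatives its difference was as small as -0.54 in PEE-TA and -0.23 in PEE. The PEE call ended in 4 of 36 settings, with an adjusted p of up to 0.116. Isg15 lay at 3.36, 4.14 and 3.33 in PEE-PH, 4.65, 4.30 and 3.91 in PEE-TA and 4.44, 4.90 and 3.26 in PEE, against 6.03, 5.76 and 5.92 in control. The spread between arrays was wider with PEE alone than in control, but no array reached the control range. The differences of Isg15 were -2.29 ± 0.32 in PEE-PH (adjusted p = 3.98e-05), -1.61 ± 0.32 in PEE-TA (0.00163) and -1.70 ± 0.32 in PEE (0.0023).

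Mx1 lay at -3.88, -2.39 and -3.69 in PEE-PH, -1.95, -2.57 and -3.19 in PEE-TA and -2.16, -1.31 and -3.53 in PEE, against -0.17, -0.54 and -0.33 in control. Irf7 lay at 3.07, 4.04 and 3.22 in PEE-PH, 4.64, 4.07 and 3.91 in PEE-TA and 4.39, 4.82 and 3.44 in PEE, against 5.97, 5.41 and 5.59 in control. Neither gene overlapped with control in any of these groups, and replicate 2 was the highest array of PEE and of PEE-PH for both. Mx1 fell by 2.97 ± 0.45 in PEE-PH, by 2.22 ± 0.45 in PEE-TA and by 1.99 ± 0.45 in PEE. Irf7 fell by 2.21 ± 0.32 in PEE-PH, by 1.45 ± 0.32 in PEE-TA and by 1.44 ± 0.32 in PEE. The PEE count depended on the fit: fitted on the 6 arrays of PEE and control alone, 12 members passed, and 15 with the array's 75th percentile signal as a covariate. Without all arrays of replicate 1 it was 6 members, and without those of replicate 3 it was 7.

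In the treatments without PEE fewer members passed the threshold. In PH-TA, 18 members fell and 0 rose against control, where 17.5% of all genes fell and 12.1% rose, and the median was -0.69. With PH alone 2 members fell and 0 rose, where 3.65% of all genes fell and 1.6% rose, and the median was -0.61. With TA alone 0 members passed in the limma fit and 7 were lower at an unadjusted p under 0.05, where 1.43% of all genes fell and 0.399% rose, and the median was -0.38. The arrays of 31 members in PH-TA, 25 in PH and 10 in TA lay wholly below control, against 26.4%, 15.4% and 14.3% of all genes. A missed threshold does not show that these treatments left the members at the control level.

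Ifnb1 lay at -4.42, -5.17 and -4.22 in PH-TA, -4.12, -4.60 and -4.12 in PH and -3.29, -4.06 and -4.43 in TA, against -2.79, -2.87 and -3.09 in control. No array of these groups reached the control arrays, and the difference passed in PH-TA (-1.69 ± 0.48, adjusted p = 0.0134) but not in PH (-1.36 ± 0.48, 0.104) or TA (-1.01 ± 0.48, 0.29). Isg15 lay at 4.94, 4.74 and 5.36 in PH-TA, 5.53, 4.89 and 5.28 in PH and 5.88, 5.43 and 5.25 in TA, against 6.03, 5.76 and 5.92 in control. The TA arrays overlapped with control, the others did not, and Isg15 passed in PH-TA (-0.89 ± 0.32, adjusted p = 0.0448), a call that ended when any of 11 of the 24 arrays was left out. Mx1 lay at -1.94, -1.90 and -1.02 in PH-TA, -1.05, -1.59 and -1.20 in PH and -0.83, -1.18 and -1.29 in TA, against -0.17, -0.54 and -0.33 in control. All 9 Mx1 arrays were below control, and the difference passed in PH-TA (-1.27 ± 0.45, adjusted p = 0.0416). Irf7 lay at 4.57, 4.42 and 4.85 in PH-TA, 5.39, 4.48 and 4.74 in PH and 5.63, 5.12 and 4.98 in TA, against 5.97, 5.41 and 5.59 in control. The TA arrays overlapped with control, and Irf7 passed in PH-TA alone of the 3 (-1.04 ± 0.32, adjusted p = 0.0219).

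The 2 members that fell with PH were Ifnar1, by 0.72 ± 0.15 (adjusted p = 0.0118), and Ifi27l2a, by 1.14 ± 0.25 (adjusted p = 0.013). With the mean of its 4 probes Ifnar1 differed by -0.19 (adjusted p = 0.218), and its call also ended without PH replicate 2 or control replicate 3, with an adjusted p of up to 0.0745. Ifnar1 lay at -0.02, -0.25 and -0.16 in PH and at 0.94, 0.93 and 0.88 in PEE, against 0.44, 0.60 and 0.69 in control. Its PH arrays were therefore below control and its PEE arrays above, and Ifnar1 was the only member whose PEE mean lay above control. In PH-TA Slfn4 was at least 2.44-fold lower (adjusted p = 0.0156), and Ddx60, Ifi27l2a, Ifit1bl1, Ifi206, Oas1a, Oas2 and Trim30a fell by 1.02 to 1.68. The 75th percentile signal was highest in PH-TA, and with it as a covariate 0 members passed in that group. The PH-TA count was 7 without its replicate 1, 8 without its replicate 2, and 10 and 8 without control replicates 1 and 3. The PH count was 0 without its replicate 2 or without control replicate 3, and 4 without its replicate 1.

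Each compound was also averaged over the 4 settings of the other compounds, which compares 12 arrays with the compound and 12 without it. PEE lowered 38 members and raised 0, where 14.2% of all genes fell and 12.8% rose, with a median of -1.12 for the members. PH lowered 22 and raised 0, where 17.4% of all genes fell and 13.9% rose, with a median of -0.46. TA lowered 1 member, Ifnar1, by 0.32 ± 0.08 (adjusted p = 0.0186), where 5.2% of all genes fell and 2.78% rose, and the median was -0.06. The Ifnar1 call ended without any 1 of the 3 replicate numbers, with the covariate (-0.27, adjusted p = 0.328) and with the mean of its probes (-0.11, adjusted p = 0.131). For 7 members, Irf9, Zbp1, Ifit2, Usp18, Parp9, Eif2ak2 and Ifi44, all 12 arrays with PEE lay below all 12 without it, which was so for 0.68% of all genes.

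The average effect of PEE on Ifnb1 passed (adjusted p = 1.6e-05). In PEE-PH no array was well above background, and with that group set to the lowest signal well above background the fall was 2.94-fold. Dim arrays of PEE, PEE-TA and PEE-PH-TA kept their measured values, so 2.94-fold is not a strict bound. Treated in the same way, the falls of Ddx60 and Ifit1bl1 were 2.37-fold and 1.23-fold, and with normexp neither passed (adjusted p = 0.0891 and 0.124). Slfn4, also among the 38, was above background on no array with PEE and has no bound above 1-fold, and with normexp it differed by -0.003 (adjusted p = 0.96). Mx1 fell by 1.68 ± 0.23, Ifit1 by 1.58, Ifit3 by 1.55 and Usp18 by 1.52. Isg15 fell by 1.38 ± 0.16 (adjusted p = 3.79e-06) and Irf7 by 1.19 ± 0.16. At the small end were Irf1, which fell by 0.23 ± 0.07 (adjusted p = 0.0258), Ifi35 by 0.50, Eif2ak2 by 0.54 and Irf9 by 0.56. The receptor genes did not pass, with 0.06 ± 0.08 for Ifnar1 and 0.03 ± 0.04 for Ifnar2. Within each replicate number, which is 1 slide holding 1 array of every group, the members' median effect of PEE was -1.30, -0.68 and -1.42.

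PH had its largest average effect on Ifi27l2a, -1.01 ± 0.12 (adjusted p = 3.08e-05), close to the -1.04 ± 0.12 that PEE had on the same gene. Ifnb1 fell with PH (adjusted p = 0.00686), by 1.62-fold with PEE-PH set to the lowest signal well above background. Dim arrays with and without PH kept their measured values, so 1.62-fold is not a strict bound. Ifi206 fell by 0.76 ± 0.17, Oas2 by 0.60 and Irf7 by 0.65. Isg15 fell by 0.51 ± 0.16 (adjusted p = 0.0231). Ifit1, Ifit2, Ifit3 and Ifit3b did not pass for PH, with differences of -0.17 to -0.43. The members' median effect of PH within the replicate numbers was -0.73, -0.52 and -0.09. The count of 22 went to 3 without replicate 1, to 6 without replicate 2, and to 1 with the 75th percentile signal as a covariate.

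**Figure D3:**
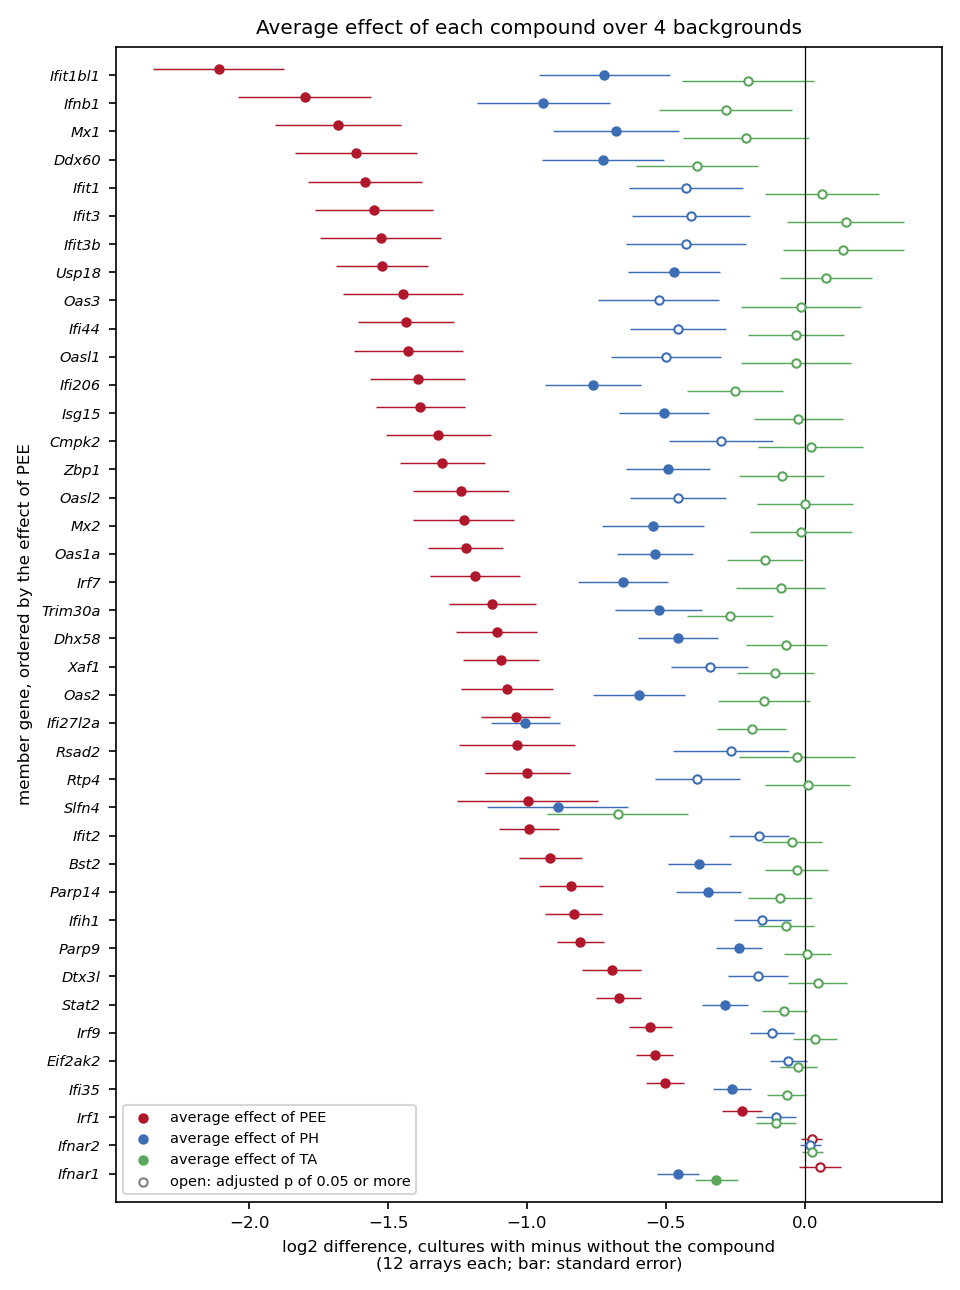
Average effect of PEE, PH and TA on each of the 40 members as a log2 difference between 12 arrays with and 12 without the compound (horizontal, bars of 1 standard error), members ordered by the effect of PEE, with filled points for an adjusted p under 0.05. The PEE points lie farthest to the left for nearly all members, the PH points between them and 0, and the TA points near 0, while PEE and PH coincide for Ifi27l2a.

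Whether one compound changed the effect of another was tested as an interaction, averaged over the presence of the remaining compound. For PEE with PH and for PEE with TA, 0 members and 0 of all 22065 genes passed in the limma fit, and 0 members had an unadjusted p under 0.05. For PH with TA, 2 members passed, Ifnar1 (0.89 ± 0.15, adjusted p = 0.000918) and Slfn4 (1.65 ± 0.51, adjusted p = 0.0371), where 9.88% of all genes had an interaction above 0 and 3.82% one below 0, and 3 were higher at an unadjusted p under 0.05. A positive value means that the pair lay higher than the sum of the single effects on the log2 scale. With any of 16 of the 24 arrays left out Slfn4 no longer passed. The interaction of PEE with TA had a median of 0.44 over the members with 38 of 40 above 0, but by replicate number the median was 0.86, -0.28 and 0.71, so replicate number 2 ran the other way.

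Against the matched treatment without PEE, PEE-PH had 35 members below PH, where 7.47% of all genes fell and 5.14% rose. PEE-TA had 12 members below TA, where 3.62% fell and 3.04% rose, and PEE-PH-TA had 19 members below PH-TA, where 4.91% fell and 8.61% rose. Ifih1, Zbp1, Ifit1bl1, Ifit2, Oas1a, Usp18, Parp9 and Bst2 passed in all 3 comparisons. Against PH-TA, however, Ifit1bl1 was above background on none of the PEE-PH-TA arrays and 1 of the PH-TA arrays, so no size is given for it, and with normexp its difference was 0.15 (adjusted p = 0.0957). The Oas1a call against PH-TA ended with any of 15 of the 24 arrays left out, with an adjusted p of up to 0.156. The Bst2 call against TA ended with any of 11 of the 24 left out, with an adjusted p of up to 0.187. Over the alternatives Parp9 was as small as -0.07 against PH-TA and -0.30 against PH, with adjusted p of up to 0.858 and 0.417. Ifit2, for one, fell by 1.21 ± 0.21 against PH, by 0.85 ± 0.21 against TA and by 0.78 ± 0.21 against PH-TA. The counts differ, but no member passed the interaction of PEE with PH or with TA. The count against PH was 19 and 23 without PH replicates 1 and 3, and 20 and 23 without PEE-PH replicates 1 and 3. The count against TA was 0, 4 and 6 without TA replicates 1, 2 and 3, and 1 and 0 without PEE-TA replicates 2 and 3, but 20 and 25 without PEE replicates 2 and 3, which enter it only through the shared spread. The count against PH-TA was 5, 7 and 3 without PH-TA replicates 1, 2 and 3, and 8, 3 and 5 without PEE-PH-TA replicates 1, 2 and 3. It was 0 without any 1 of the 3 replicate numbers and 0 with the 75th percentile signal as a covariate, under which the count against PH was 19 and that against TA 9.

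In PEE-PH against PEE 6 of the 40 members passed as lower, where 20.6% of all genes fell and 12.9% rose, so the members' share was not above that of all genes. They were Ifnar1 (-1.08 ± 0.15, adjusted p = 6.11e-05), Ifi27l2a (-1.41 ± 0.25, 0.000384), Ifnb1 (1.38-fold lower, not a strict bound with PEE above background on 2 arrays), Ifi206 (-0.93), Oas2 (-0.92) and Slfn4. Over the alternatives the Ifnar1 difference was as small as -0.40, with an adjusted p of up to 0.205. The count of 6 was 3 without PEE replicate 1 or 2 and 21 without PEE replicate 3, and it was 2, 10 and 3 without PEE-PH replicates 1, 2 and 3. It was 0 with the covariate, 3 with quantile normalization, 2 with the authors' table and 14 with normexp. In PEE-TA against PEE 2 of the 40 members passed as lower, Ifnar1 (-1.07 ± 0.15, adjusted p = 0.000123) and Slfn4. Of all genes 15.2% fell and 8% rose, so the members' share was not above that of all genes. Without any of the 3 PEE arrays 1 member passed, and 0 with the covariate. Over the alternatives this Ifnar1 difference was as small as -0.39, with an adjusted p of up to 0.0854. Slfn4 was above background on no array of PEE, PEE-PH or PEE-TA, so neither a direction nor a size is given for it. In PH-TA against TA, Ifi27l2a fell by 0.90 (adjusted p = 0.049), where 1.78% of all genes fell and 2.37% rose, a call that ended with any of 17 of the 24 arrays left out, with an adjusted p of up to 0.205, and also with quantile normalization, the authors' table, the mean of its probes and the covariate. In PEE-PH-TA against PEE-TA, against PEE-PH and in PH-TA against PH, 0 members passed in limma, and 2, 0 and 0 members had an unadjusted p under 0.05. The shares of all genes that passed in these were 0.068%, 0.0363% and 0.231% lower and 0.172%, 0.684% and 0.0906% higher.

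The members varied more between arrays of a group than most genes. Their median standard deviation within groups was 0.411 log2 units, against 0.148 over all genes, and 12 members lay above the 95th percentile of all genes (0.477). The variation was shared: averaged over the members, PEE replicate 2 lay 0.53 above and PEE replicate 3 lay 0.65 below the mean of their group, and PEE-PH replicate 2 lay 0.45 above. Ifit3 shows it, with 1.86, 2.80 and 0.47 in PEE and 1.00, 2.20 and 0.78 in PEE-PH, against 3.75, 3.46 and 3.57 in control. The 3 PEE-PH-TA arrays deviated by -0.04 to 0.03 on average and were much closer together. In control the arrays were close for nearly all members. The exceptions, with a standard deviation above 0.477, were Ddx60 with -3.58, -3.66 and -1.78 and Ifit1bl1 with -3.83, -4.94 and -4.30.

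The genes whose log2 level followed the mean of the members most closely over the 24 arrays were Gbp3 (Pearson r = 0.991), Apol9a (0.991), Apol9b (0.990), Phf11b, Ifi47, Phf11a, Phf11d, Sp100, Rnf213 and Slfn8 (0.982), out of 15527 ranked. These points share arrays, groups and scaling, and the values are a description only. Among the members themselves, Isg15 (0.993) and Zbp1 (0.992) were closest to the mean of the others and Irf1 (0.702), Slfn4 (0.631), Ifnar1 (0.158) and Ifnar2 (0.035) were least like it.

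Other genes of the pathway were counted from lists written from general knowledge. Of 54 tested genes known to be induced by interferon and not among the members, 40 fell and 1 rose in PEE-PH-TA against control. There 8.72% of all genes fell and 7.78% rose, and the median of the 54 was -0.87. The largest falls were those of Phf11b (-2.23 ± 0.34), Ifi44l (-2.13 ± 0.46) and Apol9b (-1.96 ± 0.35), and the gene that rose was Ifi27 (0.24 ± 0.07, adjusted p = 0.0269). Antigen presentation on class I molecules had 8 of 12 genes lower and 0 higher, led by the immunoproteasome subunits Psmb8 (-1.16 ± 0.20) and Psmb9 (-1.09 ± 0.18) and the peptide transporter Tap1 (-0.88 ± 0.16). Of 7 class II genes 3 fell, H2-Eb1 (-0.55), H2-Aa (-0.43) and Cd74 (-0.39).

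Upstream of interferon the picture was mixed. Of 21 sensor and adaptor genes, 5 fell and 1 rose in PEE-PH-TA against control, where 8.72% of all genes fell and 7.78% rose. The median of the 21 was -0.04. Those with the largest falls were Ddx58, which encodes RIG-I (-1.19 ± 0.21, adjusted p = 0.000708), the RNA receptor gene Tlr3 (-1.15 ± 0.24) and Nlrc5 (-0.77 ± 0.14), a regulator of class I genes, while the adaptor gene Ticam1 rose by 0.34 ± 0.09 (adjusted p = 0.0164).

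Interferon genes other than Ifnb1 gave little signal. Of 17 on the array 10 were tested, and 0 passed in limma in PEE-PH-TA against control, where their differences ran from -0.47 to 0.24, and 0 passed in the average effect of PEE, and in both 0 had an unadjusted p under 0.05. Ifng was above background on 1 of the 24 arrays, and Ifnk and Ifne on 0. Ifnl3 was above background on all 24, with a difference of 0.03 ± 0.29 (adjusted p = 0.964), and Ifna1 with 0.24 ± 0.26 (0.611). The alpha interferon genes are near copies of each other, and their probes may not tell them apart.

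**Figure D4:**
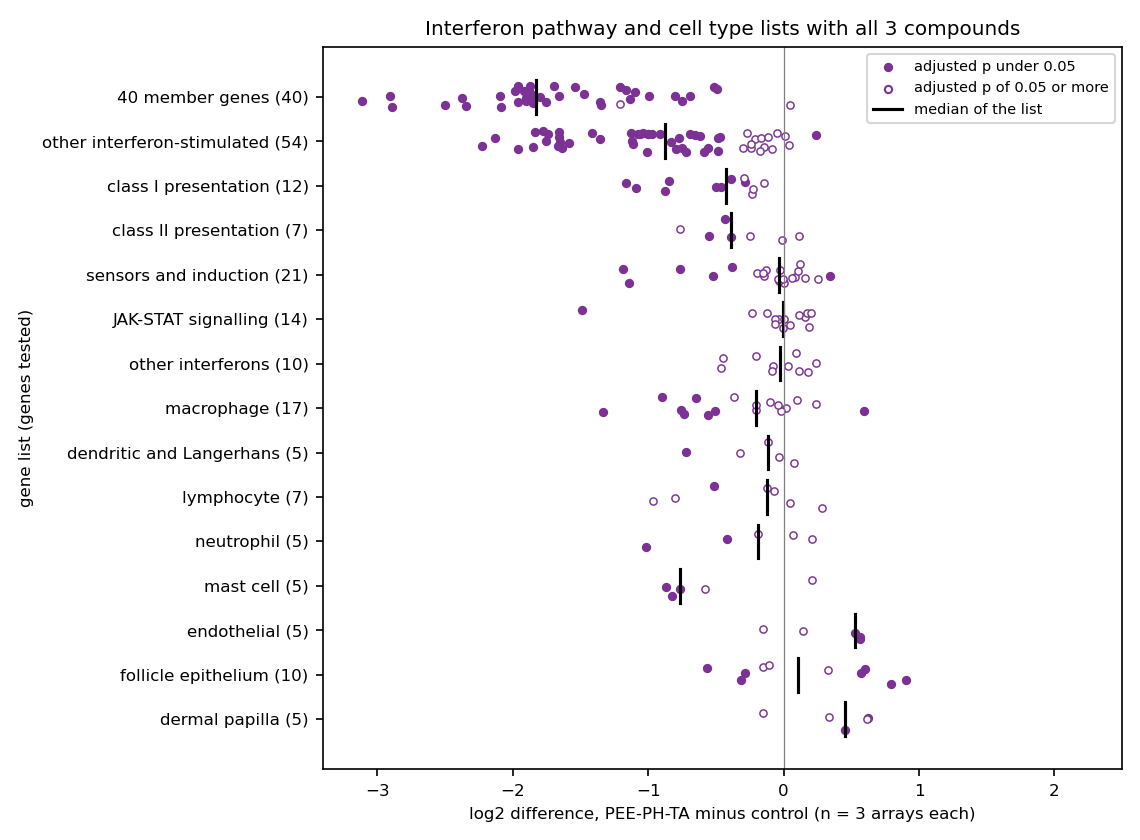
Difference in log2 signal between PEE-PH-TA and control (horizontal) for the 40 members and for each tested gene of 14 further lists (vertical), with 1 point per gene, filled where the adjusted p was under 0.05, and a bar at the list's median. The members and the other interferon-stimulated genes lie farthest to the left, and the medians of the JAK-STAT and sensor lists lie near 0.

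Markers of cell types that a follicle may hold were measured beside these results, and their part in the result was not tested. Of 17 macrophage genes 7 fell in PEE-PH-TA against control, where 8.72% of all genes fell and 7.78% rose. Fcgr1 (-1.34 ± 0.21), Aif1 (-0.90 ± 0.11) and C1qa (-0.76 ± 0.17) fell most, and Cd68 (0.10, adjusted p = 0.553) and Lyz2 (0.02, 0.957) were among those that did not pass. The summed linear signal of the 17 genes, in units of the array's 75th percentile, was 59.4 to 72.6 in PEE-PH-TA, against 66.3 to 82.0 in control, and it was 77.0 to 90.3 in PEE. The same sum over the 40 members was 95.6 to 107 in PEE-PH-TA, against 270 to 340 in control. A linear sum weighs bright genes most. The mean log2 level of the tested macrophage genes was 0.48, 0.64 and 0.39 in PEE-PH-TA, against 0.76, 0.80 and 0.91 in control, without overlap. In PEE it was 0.59, 0.94 and 0.81.

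Of the other marker lists, mast cells had 3 of 5 genes lower (Mcpt4 by 0.87, Cma1 by 0.83 and Tpsb2 by 0.76), with sums of 14.9 to 23.1 in PEE-PH-TA, against 23.1 to 38.2 in control. Neutrophils had 2 of 5 lower (Ly6g by 1.02 and Csf3r by 0.42), dendritic cells 1 of 5 (Itgax by 0.72) and lymphocytes 1 of 7 (Klrb1c by 0.52). In PEE-PH-TA against control 8.72% of all genes fell and 7.78% rose. A gene past the threshold in so short a list does not show a change of that cell type. Endothelial cells had 3 of 5 higher (Tek 0.57, Cdh5 0.56 and Emcn 0.53) and dermal papilla 2 of 5 higher (Alpl 0.63 and Bmp4 0.46). Of 10 follicle epithelium genes 4 rose, among them Msx2 (0.91), Foxn1 (0.80) and Hoxc13 (0.60), and 3 fell, Krt5 (-0.57), Krt85 (-0.31) and Krt14 (-0.28). All 10 were bright enough to be tested.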

How the data were processed

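RNA of whisker follicles was hybridised to 24 one-colour Agilent arrays, 3 in each of 8 groups, and groups came from the sample titles. Per the file headers, the deposited signal intensity was read with Agilent Feature Extraction 12.0.3.1, which subtracts background and detrends. The labels name biotin while the scans hold 1 green channel. The authors also deposited a value table on a log2 scale, whose background step and exact scaling are not given in the sources used here, with array medians of 3.73 to 3.78; each of its 24 columns correlated best with its own scan.

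Levels are log2 processed signals less the 75th percentile of their array. A probe entered the test when some group had it well above background on all 3 arrays, which held for 33340 of 56605 probes and gave 22065 genes. RefSeq gave the same symbol for the accession of 38 of the 40 members, and 20 had more than 1 tested probe. Of these 20, 3 had probes of opposite sign in PEE-PH-TA against control, Ifnar1 and Parp9 among them, and 1 in the average effect of PEE. Spots marked non-uniform (41) or as outliers were set to missing. The limma fit (limma 3.58.1, R 4.3.3) had 1 mean per group, 16 residual degrees of freedom and Benjamini-Hochberg adjustment over all genes at 0.05; it was tested on simulated data. P-values measure the spread between these experiments. The number of arrays limits the precision. A bound on a fold sets the brighter group's mean against the lowest signal well above background on the dim group's arrays. Only groups dim on all 3 arrays were set so, and single dim arrays of other groups kept their measured values.

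Members, gene lists and alternatives were chosen with earlier results of these data known. Named for their values on every array in PEE-PH-TA are 14 members picked by role and Ifnar2, which was added after its values were seen, and in the other groups Ifnb1, Isg15, Mx1 and Irf7. From each list up to 3 genes past the threshold with the largest change and those that moved against the list are named. A few that this rule picks are not reported here. Promoter sequences are from RefSeq (GRCm38.p6), matched by symbol for 30 of 40 members, and probe positions are mm9.

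Alternatives were quantile normalization, normexp background correction with an offset of 50, the authors' table, the mean of a gene's tested probes, dim probes kept, replicate number as a block, a trended robust prior, the array's 75th percentile signal as a covariate, only the 6 arrays compared, and leaving out each array or replicate number.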

Additional observations from a re-analysis of the deposited data

Results flagged for a closer look

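For 2 of the 40 members the interaction of PH with TA passed the threshold. Among all genes 9.88% had an interaction above 0 and 3.82% one below 0. Both members lay above 0, and their share was not above that of all genes. For these 2 members the effect of PH, averaged over PEE, differed with and without TA. With a replicate number left out, 0 to 2 members passed. For Ifnar1 the interaction was 0.89 ± 0.15 on the log2 scale (adjusted p = 0.000918 in limma): against control the differences were -0.69 in PH-TA, -0.72 in PH and -0.46 in TA, the last of which did not pass (adjusted p = 0.129). Where PEE was present too, Ifnar1 averaged 0.06 in PEE-PH-TA, -0.16 in PEE-PH, -0.15 in PEE-TA and 0.92 in PEE. The 4 tested Ifnar1 probes disagreed in direction in PEE-PH-TA against control, where the difference was -0.52 for the brightest and 0.27 for another. Over the alternatives the Ifnar1 interaction ran from 0.34 to 1.00, with an adjusted p of up to 0.0503. For Slfn4 the interaction was 1.65 ± 0.51 (adjusted p = 0.0371). Its probe was well above background on 4 of the 24 arrays, 3 of them control, so the interaction compares signals mostly not well above background.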

How the results depend on the processing

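Of the counts of members, those for PEE-PH-TA, PEE-PH, PEE-TA and the average effect of PEE stayed within 1.5 times of 38 under every setting that kept all arrays. Shares of all genes were counted in the main fit only. Whether the counts here and after leaving out arrays moved more than those shares was not tested. With the array's 75th percentile signal as a covariate the count of lower members was 15 in PEE, 0 in PH-TA, 1 for the average of PH, 0 for the average of TA, 19 in PEE-PH against PH, and 0 in PEE-PH-TA against PH-TA, PEE-PH against PEE, PH-TA against TA and PEE-TA against PEE. With normexp it was 6 in PH, 28 in PH-TA, 8 for the average of TA, 19 in PEE-TA against TA, 14 in PEE-PH against PEE, 6 in PH-TA against TA, 7 in PEE-TA against PEE and 4 in PH-TA against PH, and 1 member rose in each of PEE-PH-TA against PH-TA, PEE-PH against PEE and PEE-TA against PEE. Keeping dim probes moved the median of all genes by up to -0.21 (PEE-PH against PEE), and normexp moved it by up to -0.07. Quantile normalization and the authors' table gave 3 and 2 in PEE-PH against PEE, 0 each in PH-TA against TA and 1 each in PEE-TA against PEE. The mean of tested probes gave 0 for the average of TA and 0 in PH-TA against TA, no filter gave 4 in PEE-TA against TA, the trended prior 4 in PH, and the 6 arrays alone 12 in PEE. The PH with TA interaction kept 1 member under quantile normalization, the authors' table, no filter and the covariate. The 10914 refitted values of single members cover only calls that passed in the main fit, and most refits share nearly all arrays. Of these values 9849 still passed in the same direction, 1064 no longer passed and 1 reversed. The reversal was Ifit1bl1 in PEE-PH-TA against PH-TA under normexp, at 0.15 (adjusted p = 0.0957). The cause was not tested.

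Leaving out arrays or replicate numbers gave 24 to 39 lower members in PEE-PH-TA, 33 to 38 in PEE-PH, 21 to 38 in PEE-TA, 6 to 36 in PEE, 1 to 24 in PH-TA, 0 to 4 in PH, 36 to 38 for the average of PEE, 3 to 32 for PH and 0 to 2 for TA, and 0 to 2 higher for the PH with TA interaction. It gave 0 to 35 in PEE-PH against PH, 0 to 25 in PEE-TA against TA, 0 to 26 in PEE-PH-TA against PH-TA, 2 to 21 in PEE-PH against PEE, 0 to 2 in PH-TA against TA and 1 to 2 in PEE-TA against PEE. Arrays of 1 replicate number share a slide, and whether they share more is not given in the sources used here: 44 of 84 same-numbered pairs correlated over 0.1 in their deviations, and 21 of 24 arrays correlated best with their own number, a hint from the data and not from the design. With replicate number as a block the counts were 38 in PEE-PH-TA, 35 in PEE, 19 in PH-TA, 3 in PH, 38 for the average of PEE, 25 for PH, 17 in PEE-TA against TA and 22 in PEE-PH-TA against PH-TA. Ifnb1, Ddx60, Ifit1bl1 and Slfn4 are limited by signal over background.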
